A study of Rattus norvegicus with 9 samples.

Results

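The interferon-response genes examined here were Irf7, Irf9, Isg15, Ifit2, Ifit3, Bst2 and Ifitm3. They were taken by symbol from a table of reads counted on 37209 genes in the frontal cortex of 9 male Wistar rats, and all 7 had a row in it. All 7 also passed the filter on low counts, which left 16837 genes to be tested. The rats were 14 weeks old and formed 3 groups of 3. Control rats (A1, A2 and A6) were left with their dams until weaning. MS rats (B3, B4 and B6) had been parted from their dams for 4 h each day between postnatal day 1 and 21. MS+EA rats (C3, C10 and C16) had the same separation and then electroacupuncture at the points GV20 and GV29 every other day between postnatal day 61 and 81. By the methods of the study, Control and MS rats received the isoflurane anaesthesia without needles over those days, so anaesthesia was common to all groups. No sham-needled group was sequenced. The litter of each rat is not given in the sources used here, so the tests treat the rats as independent. Their p-values set a difference between groups against the spread between these rats. If rats of a group shared a litter, the p-values could be too small.

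Interferons are secreted proteins that cells release on sensing viral nucleic acid or damage. Type I interferons bind the receptor formed by Ifnar1 and Ifnar2 and activate the kinases Jak1 and Tyk2. Irf9 is the DNA-binding subunit of the complex ISGF3 that then forms and binds the interferon-stimulated response element in the promoters of responding genes. Irf7 is itself induced by this route and drives further interferon production. Isg15 is a ubiquitin-like protein that is attached to other proteins. Ifit2 and Ifit3 bind or restrict foreign RNA, Bst2 (tetherin) holds budding virus particles at the cell surface, and Ifitm3 blocks virus entry from endosomes. In uninfected brain these genes have a low tonic level, with contributions from microglia, endothelium and other cell types.

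The core of the response element was searched as GAAANNGAAA on either strand, where the reverse strand reads TTTCNNTTTC, in the 300 bases from 250 before to 50 after the start of each gene in the RefSeq promoters of GRCr8. Reads had been mapped to an earlier build, Rnor_6.0, and the promoters were used for their sequence only. Of the 7 genes, Irf7, Irf9, Ifit3, Bst2 and Ifitm3 matched a promoter by symbol. The core was present in 4 of these 5, against 1312 of all 33469 promoters, or 3.92%. The stretches around the matches in these 4 genes are shown because the match was not used to choose the genes. Capitals mark the core.
Irf7, GRCr8 chr1:205800048-205800127, minus strand: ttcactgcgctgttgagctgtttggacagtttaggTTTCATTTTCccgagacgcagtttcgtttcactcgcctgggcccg
Ifit3, GRCr8 chr1:241527247-241527326, plus strand: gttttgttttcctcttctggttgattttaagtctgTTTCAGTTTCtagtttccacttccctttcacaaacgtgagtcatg
Ifitm3, GRCr8 chr1:205541758-205541837, minus strand: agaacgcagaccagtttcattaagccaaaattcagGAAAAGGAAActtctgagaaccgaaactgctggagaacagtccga
Bst2, GRCr8 chr16:18255048-18255133, minus strand: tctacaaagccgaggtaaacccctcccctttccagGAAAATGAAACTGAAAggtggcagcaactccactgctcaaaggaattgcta

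The core ended 35 bases before the start in Ifit3 and Ifitm3 and 60 bases before it in Irf7. Bst2 held 2 overlapping cores that ended 122 and 116 bases before its start. The promoter window of Irf9 held no exact match. Among the other genes of the interferon pathway described further on, 57 of the 73 tested had a promoter in the table, and 26 of these 57 (45.6%) held the core. A match is a run of letters and was not tested as a binding site.

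Total counts were between 12479905 and 19007907 per rat, with the 3 MS+EA rats lowest. Levels are given below in CPM, the reads of a gene relative to the library size after scaling by the TMM factors of edgeR. Markers of the frontal cortex were abundant in each rat, with a summed level of 4910 to 6400 CPM for 6 neuronal genes, 3560 to 4350 CPM for 6 astrocyte genes and 293 to 390 CPM for 10 microglial genes. The sum for 6 oligodendrocyte genes was 1830 to 4180 CPM. The MS rat B4 stood apart in 8 markers of meningeal fibroblasts, which summed to 524 CPM there, 286 CPM in C16, 176 CPM in C3, 124 CPM in B6, 69.8 CPM in C10 and 68.4 CPM in B3. The Control rats, at 48.4 to 59.1 CPM, were all below these. B4 also had the highest sum for macrophages and other leukocytes, 45.7 CPM against 24.9 to 32.3 CPM in the other rats. For choroid plexus it had 11.8 CPM against 1.07 to 3.49 CPM. It was the highest rat for endothelium and for pericytes and smooth muscle as well. Sums for pericytes and smooth muscle (131 to 143 CPM in Control, 168 to 291 CPM in MS, 149 to 191 CPM in MS+EA rats) and for red blood cells (93.7 to 198, 221 to 304 and 207 to 303 CPM) separated Control rats from the others in the same direction, as did those for endothelium given with the Ifitm genes. Not every gene followed its sum. Acta2, Myh11 and Vtn were higher in every MS and MS+EA rat than in every Control rat, as was Tagln in MS rats only. The pericyte markers Rgs5, Abcc9, Kcnj8 and Pdgfrb overlapped. Of the endothelial markers, Tek, Tie1 and Slco1a2 were higher in all MS and MS+EA rats, and Cldn5 and Kdr in MS rats only. Pecam1, Cdh5, Flt1 and Esam overlapped. The part of these cell types in the results was not tested. In a bulk sample, fewer cells of a type and less RNA per cell cannot be told apart.

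The 7 genes were expressed in every rat, but none differed between the groups past the thresholds. The transcription factor genes Irf7 and Irf9 overlapped between all groups. Irf7 had 3.85, 3.23 and 5.16 CPM in the Control rats A1, A2 and A6, 3.73 CPM in the MS rat B3, 2.63 CPM in B4 and 3.25 CPM in B6, and 2.57, 2.95 and 5.41 CPM in the MS+EA rats C3, C10 and C16. The Control rat A6 and the MS+EA rat C16 were the highest and the other 7 rats lay close together. Irf9, the DNA-binding subunit of ISGF3, had 9.10, 11.1 and 12.5 CPM in Control rats, 11.2, 11.3 and 9.08 CPM in MS rats, and 9.92, 11.7 and 13.4 CPM in MS+EA rats. Irf9 was the steadiest of the 7 genes, with the highest rat 1.48-fold above the lowest. Its biological coefficient of variation, the spread between rats of a group beyond counting error, was 13.8%, close to the median of 12.4% over all tested genes.

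Isg15 was counted by few reads. It had 5, 5 and 15 reads in Control rats, 10, 10 and 10 reads in MS rats, and 12, 12 and 13 reads in MS+EA rats, where 5 reads have an exact 95% Poisson interval of 1.62 to 11.7 that covers counting error only. As CPM these were 0.268, 0.305 and 0.933 in Control rats, 0.583, 0.625 and 0.601 in MS rats, and 0.832, 0.804 and 1.03 in MS+EA rats. Every MS+EA rat was above every MS rat, while the Control rats spanned a range that reached below the MS rats and above some of the MS+EA rats.

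The neighbouring genes Ifit2 and Ifit3 moved together between rats. Ifit2 had 7.60, 10 and 13.4 CPM in Control rats, 8.81, 7.50 and 8.18 CPM in MS rats, and 5.62, 10.4 and 8.03 CPM in MS+EA rats. Ifit3 had 3.27, 7.38 and 15.5 CPM in Control rats, 7.46, 3.32 and 4.39 CPM in MS rats, and 2.50, 5.50 and 5.17 CPM in MS+EA rats. A6 was the highest rat and C3 the lowest for both genes, and all groups overlapped. Ifit3 varied most of the 7 genes, with a 6.20-fold range over the rats. Its biological coefficient of variation of 39.5% was larger than that of 96.4% of the tested genes.

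The genes of membrane proteins, Bst2 and Ifitm3, did not share a pattern. Bst2 had 1.45, 1.71 and 2.49 CPM in Control rats, 1.92, 1.94 and 0.962 CPM in MS rats, and 1.39, 1.07 and 1.99 CPM in MS+EA rats. The groups overlapped throughout, and A6 was again the highest rat. Ifitm3 had 2.68, 1.34 and 2.80 CPM in Control rats, 2.80, 6.13 and 2.71 CPM in MS rats, and 2.50, 2.61 and 2.94 CPM in MS+EA rats. B4 alone was above 3 CPM, and A2 alone was below 2 CPM.

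**Figure D1:**
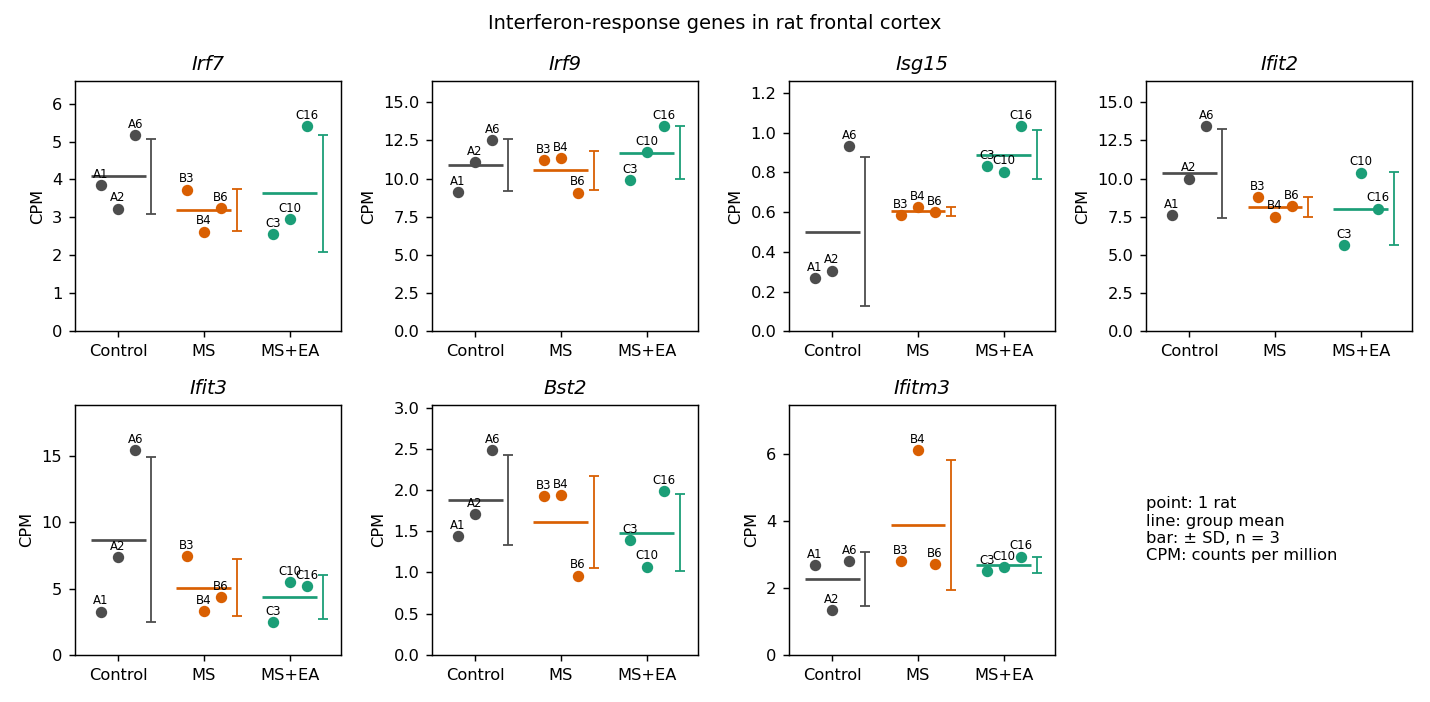
Level of each of the 7 genes, in CPM on a linear axis from 0, in each rat (points), with the group mean (line) and SD (bar, n = 3). A6 is the highest rat for Ifit2, Ifit3 and Bst2, C16 for Irf7, Irf9 and Isg15, and B4 for Ifitm3, and the groups overlap except for Isg15 between MS and MS+EA rats.

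The first comparison asked how the adult cortex of separated rats differs from that of undisturbed rats. With edgeR's quasi-likelihood test, 0 of the 7 genes passed an adjusted p under 0.05 with a fold change above 1.5 in MS relative to Control rats. Over all tested genes 0.0238% passed. At an unadjusted p under 0.05 there were 0 of the 7 genes, against 10.6% of all tested genes, and 0 of the 7 had groups that did not overlap, against 17.6%. Their median log2 fold change was -0.22, and that of all tested genes was -0.00135. Limma-trend also passed 0 of the 7, and DESeq2 passed 0 of the 6 to which it gave an adjusted p, all but Isg15. At an unadjusted p under 0.05 limma-trend had 0 and DESeq2 had 1, which was Ifitm3.

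The lowest log2 fold change was that of Ifit3, at -0.77 (95% interval -1.79 to 0.24, edgeR adjusted p = 0.585). The means were 8.71 ± 6.22 CPM for Control and 5.06 ± 2.15 CPM for MS rats (SD, n = 3). This value rested on A6, and without that rat it was -0.06. The highest was that of Ifitm3, at 0.76 (95% interval -0.01 to 1.54, edgeR adjusted p = 0.476). The means were 2.27 ± 0.808 CPM for Control and 3.88 ± 1.95 CPM for MS rats (SD, n = 3). It rested on B4, the rat highest in markers of meningeal fibroblasts, leukocytes and endothelium, and was 0.27 without it. For Irf9 the log2 fold change was -0.05, and its 95% interval of -0.40 to 0.31 held no change of 1.5-fold (0.58 on the log2 scale) in either direction. The intervals of the other 6 genes reached beyond 1.5-fold on at least 1 side, so a change of that size was not excluded for them with 3 rats a group. Irf7 had a log2 fold change of -0.35 (95% interval -0.99 to 0.30) and Ifit2 one of -0.34 (95% interval -0.84 to 0.16). Bst2 had one of -0.22 (95% interval -1.02 to 0.58) and Isg15 one of 0.28 (95% interval -0.82 to 1.38). For Isg15 the value was 1.06 without A6 and -0.03 without A1.

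The comparison of MS+EA with MS rats asked what changed with electroacupuncture after separation, and it shares the MS rats with the first. Again 0 of the 7 genes passed the thresholds, against 0.0178% of all tested genes, and 0 had an unadjusted p under 0.05, against 12.4%. Limma-trend had 0 by either measure. DESeq2 gave an adjusted p to 0 of the 7 genes here, so it could call none, and it had 0 at an unadjusted p under 0.05. The groups of 1 gene, Isg15, did not overlap, against 17.9% of all tested genes. Its means were 0.603 ± 0.0212 CPM for MS and 0.890 ± 0.125 CPM for MS+EA rats (SD, n = 3). The log2 fold change was 0.55 (95% interval -0.50 to 1.60, edgeR adjusted p = 0.678). The MS+EA rats were higher by 2 or 3 reads than the MS rats at lower total counts. Ifitm3 had the lowest log2 fold change, -0.53 (95% interval -1.30 to 0.25, edgeR adjusted p = 0.570), which was -0.03 without B4. For Irf9 the log2 fold change was 0.15 (95% interval -0.21 to 0.50) and for Ifit2 it was -0.03 (95% interval -0.54 to 0.49), and neither interval held a change of 1.5-fold. The values were 0.17 for Irf7 (95% interval -0.48 to 0.83), -0.21 for Ifit3 (95% interval -1.28 to 0.86) and -0.13 for Bst2 (95% interval -0.95 to 0.70). The value of Irf7 was -0.22 without C16.

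In MS+EA relative to Control rats, 0 of the 7 genes passed, against 1.37% of all tested genes. At an unadjusted p under 0.05 there were 0 of the 7, against 22.5%, and 0 had groups that did not overlap, against 25.9%. Limma-trend had 0 by either measure, and so had DESeq2, which gave no adjusted p to Isg15 and Bst2. The Control rats are shared with the first comparison and the MS+EA rats with the second. Ifit3 was furthest from 0, with a log2 fold change of -0.98 (95% interval -2.02 to 0.06, edgeR adjusted p = 0.25), and was at -0.26 without A6. Isg15 had a log2 fold change of 0.83 (95% interval -0.25 to 1.91, edgeR adjusted p = 0.348), which was 1.61 without A6 and 0.52 without A1. Ifit2 had one of -0.36 (95% interval -0.87 to 0.14) and Bst2 one of -0.35 (95% interval -1.16 to 0.47). For Irf7 it was -0.17 (95% interval -0.82 to 0.47), for Ifitm3 0.24 (95% interval -0.56 to 1.03) and for Irf9 0.10 (95% interval -0.25 to 0.46).

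**Figure D2:**
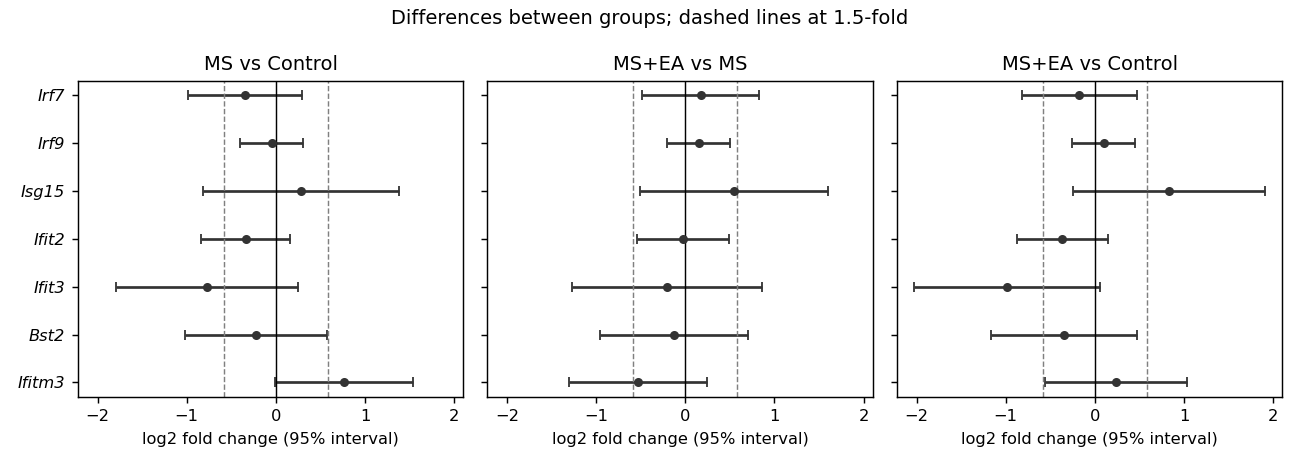
Log2 fold change of each gene (point) with its 95% interval (bar) from the edgeR fit in the 3 comparisons, with dashed lines at 1.5-fold. Every interval includes 0, and the interval of Irf9 lies between the dashed lines in all 3 comparisons.

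The highest and lowest rats recurred from gene to gene. A6 was among the 3 highest rats for 6 of the 7 genes and C16 for 5 of them, while C3 was among the 3 lowest for 6. A6 and C16 belong to different groups. The levels of the 7 genes summed to 52.8 CPM in A6, 38.0 CPM in C16, 25.3 CPM in C3 and between 28.2 and 36.5 CPM in the other rats. The summed microglial markers did not follow this order, with 368 CPM in A6, 309 CPM in C16 and 374 CPM in C3. Endothelial markers summed to 258 CPM in A6, 299 CPM in C16 and 339 CPM in C3. Macrophage and other leukocyte markers summed to 30.3 CPM in A6, 28.9 CPM in C16 and 30.4 CPM in C3. C3 did stand apart in oligodendrocyte markers, with 4180 CPM against 1830 to 3240 CPM in the other rats (2120 CPM in A6, 3050 CPM in C16). It was also lowest in neuronal markers, with 4910 CPM against 5700 to 6400 CPM (5700 CPM in A6, 5950 CPM in C16). The part of these cell types in the levels of the 7 genes was not tested.

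Pearson correlations of log2 CPM over the 9 rats describe this sharing. They are given without p-values, since the points share libraries and the genes were not chosen independently of these data. Of the 21 pairs of genes, 18 had a positive correlation. The 15 pairs without Ifitm3 were all positive, between 0.08 and 0.92, and the highest was that of Ifit2 and Ifit3. In RefSeq these are direct neighbours on chromosome 1. With group means removed, the same 15 pairs lay between 0.19 and 0.90. Pairs with Ifitm3 lay between -0.30 and 0.35, and with group means removed between -0.18 and 0.42. The split by Ifitm3 was not planned in advance, and no correlations of other gene pairs are given for comparison.

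The 5 tested genes whose pattern over the 9 rats was closest to the mean standardised level of the 7 were Tsc22d3 (r = 0.96), Rhob (r = 0.93), Maff (r = 0.92), LOC102551900 (r = 0.91) and Sgk1 (r = 0.91). Tsc22d3 and Sgk1 are known as genes that glucocorticoids induce, Maff encodes a small bZIP transcription factor and Rhob a small GTPase. These were the extremes of 16830 genes over 9 rats, so their correlations are high by selection. Of the pathway genes described below, 0 were among the 100 closest. Tsc22d3 had 43.5, 48.7 and 80.7 CPM in the Control rats A1, A2 and A6, 52.6, 50.2 and 41.9 CPM in MS rats and 46.3, 52.9 and 61.4 CPM in MS+EA rats. Sgk1 had 68.4, 83.1 and 142 CPM in Control rats, 88.5, 75.6 and 68.1 CPM in MS rats and 59.9, 62.7 and 104 CPM in MS+EA rats. For both genes A6 was the highest rat and C16 the next. What the rats A6 and C16 had in common was not tested.

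**Figure D3:**
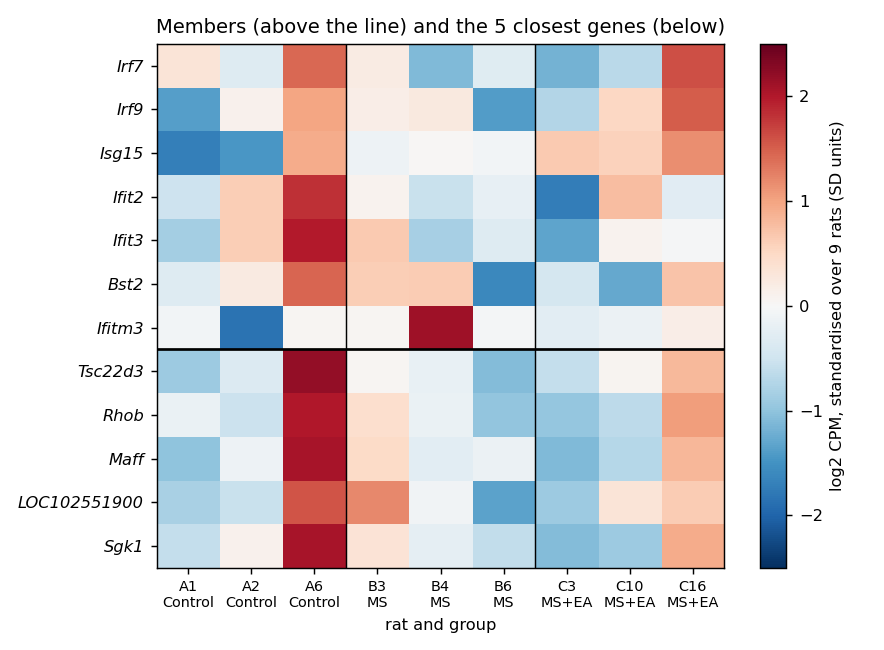
Log2 CPM of the 7 genes (above the line) and of the 5 closest genes (below), with 0.1 CPM added before the logarithm, standardised over the 9 rats so that colours show SD units above (red) or below (blue) each gene's mean. The columns of A6 and C16 are mostly red, and the row of Ifitm3 differs from the others through B4.

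The families of Ifit and Ifitm genes were chosen for a closer description after their values had been seen. Ifit1, which binds RNA lacking the host cap structure, lies in the same run of genes as Ifit2 and Ifit3. It had 42, 82 and 0 reads in the Control rats A1, A2 and A6, 54, 71 and 69 reads in MS rats, and 47, 0 and 27 reads in the MS+EA rats C3, C10 and C16. It was therefore without a read in A6, where Ifit2 and Ifit3 were highest, and in C10. Of the 13760 tested genes with a mean above 2 CPM, 8 had 0 reads in any rat. Its relative Ifit1lb, listed in RefSeq as Ifit1bl between Ifit3 and Ifit1, was counted in every rat, with 132 reads in A6 and 191 in C10. The levels of Ifit1 and Ifit1lb together were between 8.21 CPM in A6 and 15.0 CPM in B4, with 12.8 CPM in C10. How reads that match several genes were counted is not given in the sources used here, so levels within these families are uncertain.

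Ifitm1 and Ifitm2 lie near Ifitm3 in RefSeq and share much of its sequence. Ifitm2 had 2.94, 2.19 and 2.49 CPM in Control rats, 1.98, 6.19 and 2.58 CPM in MS rats, and 2.43, 1.47 and 3.42 CPM in MS+EA rats. As for Ifitm3, B4 was far above the other rats. Ifitm1 had 0.268, 0.183 and 0.808 CPM in Control rats, 0.233, 2.19 and 1.08 CPM in MS rats, and 0.624, 0.268 and 2.62 CPM in MS+EA rats. C16 and B4 were the highest rats for Ifitm1, and they were also the 2 rats with the highest sums of meningeal fibroblast markers, 286 and 524 CPM. For macrophage and other leukocyte markers B4 was also the highest rat, at 45.7 CPM, while C16 had 28.9 CPM. The part of any of these cell types in the Ifitm levels was not tested. Endothelial markers summed to between 242 and 268 CPM in Control rats, 324 and 402 CPM in MS rats with B4 highest, and 282 and 339 CPM in MS+EA rats. Between Control and MS+EA rats, Slco1a2 (63.5 to 74.1 against 91.5 to 97.5 CPM), Tek and Tie1 did not overlap. The other endothelial markers overlapped between these groups.

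**Figure D4:**
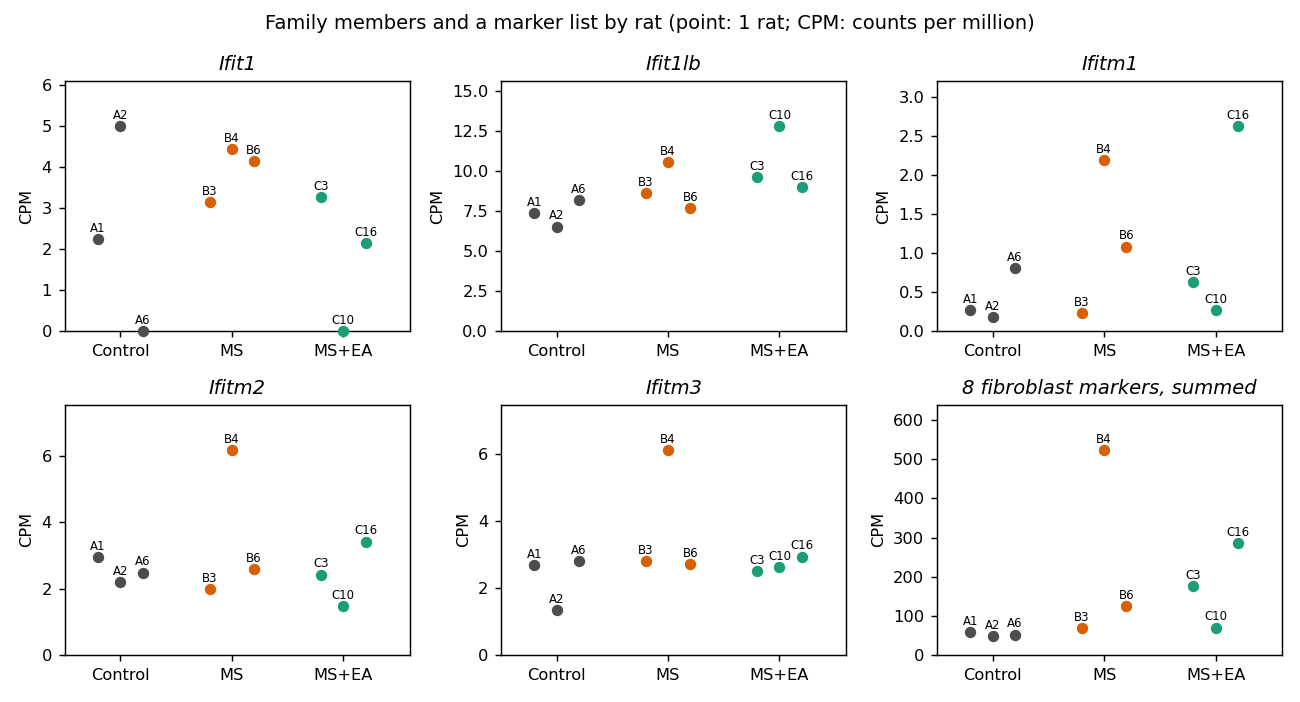
Levels of Ifit1, Ifit1lb and the 3 Ifitm genes and the sum of 8 meningeal fibroblast markers, each in CPM on a linear axis from 0, with 1 point per rat. Ifit1 lies at 0 in A6 and C10, and B4 is the highest rat for Ifitm2, Ifitm3 and the fibroblast markers.

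The rest of the pathway was read from a list of 98 genes with a row in the table, of which 73 were tested. No interferon gene was among these. Over all 9 rats and 143176398 counts, Ifnb1 had 3 reads and Ifng, the type II interferon, had 0, which allows up to 0.0210 CPM. Ifna4 had 37 reads, with at most 9 in a rat, and Ifne had 27. The other 6 interferon genes had between 0 and 13 reads each. The interferon-induced chemokine genes Cxcl9, Cxcl10 and Cxcl11 had 1, 34 and 3 reads over all rats and were under the filter as well.

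With edgeR, 0 of the 73 genes passed the thresholds in each of the 3 comparisons, as with limma-trend. DESeq2 also passed 0, but gave an adjusted p to 62 of them in MS relative to Control, 9 in MS+EA relative to MS and 52 in MS+EA relative to Control rats. At an unadjusted p under 0.05 edgeR had 3 in MS relative to Control rats, all higher, 3 in MS+EA relative to MS rats, all higher, and 4 in MS+EA relative to Control rats, 3 higher and 1 lower. The shares over all tested genes were 10.6%, 12.4% and 22.5%, so each count of the pathway was below the background. DESeq2 had 3, 1 and 4 and limma-trend 3, 4 and 5. Groups did not overlap for 6 higher and 2 lower of the 73 genes in MS relative to Control rats. The counts were 4 and 3 in MS+EA relative to MS rats and 3 and 2 in MS+EA relative to Control rats. Over all tested genes the shares without overlap were 17.6%, 17.9% and 25.9%. The median log2 fold change of the 73 genes was 0.09 in MS relative to Control rats, with 50 genes above 0, 0.01 in MS+EA relative to MS rats, with 37 above 0, and 0.12 in MS+EA relative to Control rats, with 44 above 0. The medians over all tested genes were -0.00135, 0.000586 and 0.00553, with 8375, 8443 and 8574 of the 16837 genes above 0.

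Among the receptors, all 6 were tested and their log2 fold changes lay between -0.19 and 0.29 in all 3 comparisons. Ifngr2, a subunit of the type II receptor, had 31.1 ± 0.145, 31.5 ± 0.605 and 27.6 ± 2.52 CPM (SD, n = 3) in Control, MS and MS+EA rats. In MS+EA relative to MS rats its log2 fold change was -0.19 (edgeR adjusted p = 0.405). Il10rb, a receptor chain shared with type III interferons, had 6.78 ± 0.848, 7.03 ± 0.213 and 8.29 ± 0.573 CPM (SD, n = 3) in Control, MS and MS+EA rats. The type I receptor genes Ifnar1 and Ifnar2 had log2 fold changes between -0.08 and 0.01.

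Of 11 kinases and transcription factors, 0 passed. Jak2 had 80.9 ± 8.60, 87.3 ± 7.55 and 93.9 ± 7.53 CPM (SD, n = 3) in Control, MS and MS+EA rats, with a log2 fold change of 0.22 in MS+EA relative to Control rats (edgeR adjusted p = 0.204). Irf5, a regulator of inflammatory genes in myeloid cells, had 2.53 ± 0.203, 3.25 ± 0.612 and 3.73 ± 1.20 CPM (SD, n = 3) in Control, MS and MS+EA rats.

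Of 12 sensors and adaptors, Aim2 and Tlr9 had the smallest unadjusted p, and 0 passed. Aim2, a sensor of DNA in the cytosol, had 0.811 ± 0.261, 0.419 ± 0.204 and 1.05 ± 0.0849 CPM (SD, n = 3) in Control, MS and MS+EA rats. Relative to Control rats, MS rats had a log2 fold change of -0.93 (edgeR adjusted p = 0.499). Relative to MS rats, MS+EA rats had one of 1.30 (edgeR adjusted p = 0.3). Both values rested on few reads of Aim2, 106 over all rats. It had 11, 18 and 12 reads in Control rats, 11, 6 and 4 in MS rats, and 14, 17 and 13 in MS+EA rats. Tlr9, a sensor of DNA in endosomes, had 2.28 ± 0.325, 1.84 ± 0.475 and 1.18 ± 0.334 CPM (SD, n = 3) in Control, MS and MS+EA rats. The log2 fold change of Tlr9 was -0.95 in MS+EA relative to Control rats (edgeR adjusted p = 0.109).

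Of 28 tested antiviral effectors, 20 were above 0 in MS relative to Control rats and 20 in MS+EA relative to Control rats. Of all 16837 tested genes, 8375 and 8574 were above 0 in these comparisons. Both separated groups also had higher summed markers of endothelium, pericytes and smooth muscle, meningeal fibroblasts and red blood cells than Control rats. Within these sums, the pericyte markers and some endothelial markers overlapped between groups. The part of those cells here was not tested. Trim21, a receptor for antibody in the cytosol, had the smallest adjusted p of the pathway. Its levels were 5.51, 5.43 and 7.09 CPM in Control rats, 8.51, 9.26 and 7.10 CPM in MS rats and 9.02, 8.44 and 9.38 CPM in MS+EA rats. Every separated rat was above every Control rat, but A6 and B6 nearly met. Groups did not overlap, in either direction, for 17.6% of all tested genes in MS and 25.9% in MS+EA relative to Control rats. The log2 fold change was 0.46 in MS (edgeR adjusted p = 0.311) and 0.57 in MS+EA rats (edgeR adjusted p = 0.0614), each relative to Control rats. Ifit1lb had 7.37 ± 0.841, 8.97 ± 1.47 and 10.5 ± 2.04 CPM (SD, n = 3) in Control, MS and MS+EA rats, with a log2 fold change of 0.51 in MS+EA relative to Control rats (edgeR adjusted p = 0.113). Over the 28 effectors, log2 fold changes lay between -0.50 and 1.47 in MS relative to Control, -1.12 and 0.56 in MS+EA relative to MS, and -1.06 and 1.45 in MS+EA relative to Control rats. Relative to Control rats, the highest values were those of Ifitm1 and the lowest those of Isg20, genes with 124 and 96 reads over all rats. The value of -1.12 was that of Ifit1, which had 0 reads in C10.

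The 6 genes of Isg15 conjugation and feedback were all tested. Herc6, the ligase that attaches Isg15 in rodents, had 35.4, 41.5 and 60.8 CPM in Control rats, 41.9, 43.8 and 43.1 CPM in MS rats and 52.0, 77.5 and 47.4 CPM in MS+EA rats. As for Isg15, every MS+EA rat was above every MS rat and the Control rats spanned the range of the MS rats. These 2 groups did not overlap, in either direction, for 17.9% of all tested genes. Uba7, Ube2l6 and Usp18 overlapped between them, with log2 fold changes of -0.24, 0.23 and 0.28. Its log2 fold change in MS+EA relative to MS rats was 0.46 (edgeR adjusted p = 0.365). Uba7, which activates Isg15 for transfer, had 1.69 ± 0.480, 2.56 ± 0.493 and 2.15 ± 0.741 CPM (SD, n = 3) in Control, MS and MS+EA rats.

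Of 10 tested targets of interferon gamma, 9 were above 0 in MS relative to Control rats, with a median log2 fold change of 0.38 and 0 past the thresholds. Of all 16837 tested genes, 8375 were above 0 in that comparison. Summed markers of endothelium were higher in the same rats (242 to 268 CPM in Control and 324 to 402 CPM in MS rats). So were those of pericytes and smooth muscle (131 to 143 and 168 to 291 CPM) and red blood cells (93.7 to 198 and 221 to 304 CPM). Within these lists the pericyte markers Rgs5, Abcc9, Kcnj8 and Pdgfrb overlapped, as did the endothelial markers Pecam1, Cdh5, Flt1 and Esam. Macrophages and other leukocytes (28.7 to 30.3 and 30.6 to 45.7 CPM) and meningeal fibroblasts (48.4 to 59.1 and 68.4 to 524 CPM) were higher too. The neuronal sum was 5700 to 5810 CPM in Control and 5860 to 6400 CPM in MS rats, but its genes were divided. Snap25 was higher in every MS rat (2368 to 2690 against 2122 to 2181 CPM). Slc17a7 was lower in every MS rat (1436 to 1498 against 1532 to 1635 CPM), and the other neuronal genes overlapped. Sums for microglia, astrocytes, oligodendrocytes and choroid plexus overlapped. The part of these cell types in the levels of the targets was not tested. Gbp2, a GTPase that acts on intracellular pathogens, had 2.78, 2.87 and 2.67 CPM in Control rats, 4.37, 5.88 and 3.37 CPM in MS rats and 4.23, 2.75 and 5.80 CPM in MS+EA rats. The MS rats were all above the Control rats, with a log2 fold change of 0.71 (edgeR adjusted p = 0.396). These groups did not overlap, in either direction, for 17.6% of all tested genes. B4 and C16 were the highest rats for Gbp2, as they were for Ifitm1 and for the meningeal fibroblast markers. For the macrophage and other leukocyte markers B4 was highest, at 45.7 CPM, and C16 had 28.9 CPM. Irgm, another GTPase of this response, had 4.66 ± 0.990, 5.86 ± 0.794 and 4.44 ± 0.468 CPM (SD, n = 3) in Control, MS and MS+EA rats, with a log2 fold change of -0.40 in MS+EA relative to MS rats (edgeR adjusted p = 0.449). In MS+EA relative to MS rats the median of the 10 targets was -0.06, with 4 above 0.

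**Figure D5:**
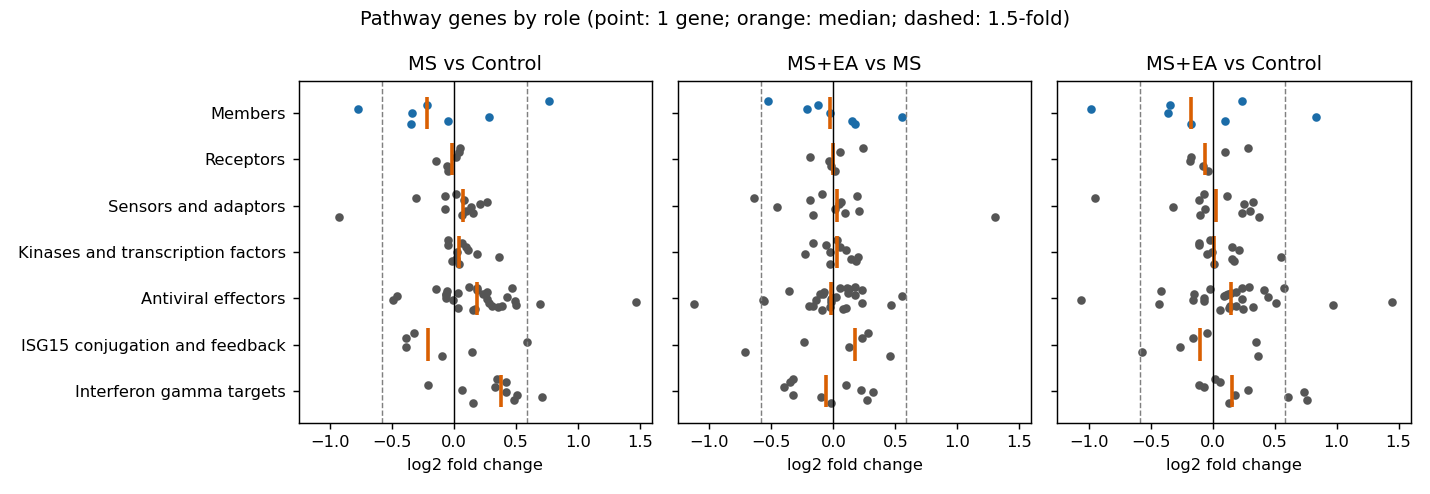
Log2 fold change of each gene (point) of the 7 members and of the 73 pathway genes by role, with the median of each role (orange line) and dashed lines at 1.5-fold, in the 3 comparisons. Medians lie between -0.22 and 0.38 in every role and comparison, and 0 genes passed the thresholds.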

How the data were processed

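Frontal cortex RNA was sequenced on an Illumina HiSeq instrument after removal of rRNA. The authors filtered reads with Fast-QC, mapped them to Rnor_6.0 with HISAT2 2.0.4 per the submitters' processing notes, and deposited whole-number counts per gene without normalization. The counting program, its strand setting and the treatment of reads with several locations are not given in the sources used here. The study's own test was EBSeq, which was not run.

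Groups were taken from the sample titles. Counts were analysed with edgeR 4.0.16 in R 4.3.3: genes were kept by filterByExpr (minimum count 10), scaled by TMM, and fitted with the quasi-likelihood method, with 1 mean for each group, to all 9 rats. P-values were adjusted by Benjamini-Hochberg over 16837 genes, and the call needed an adjusted p below 0.05 together with a change of more than 1.5-fold, the thresholds of the study. Intervals (95%) are those of the single gene, unadjusted. Alternatives used DESeq2 1.42.0 and limma 3.58.1 and the settings in the closing section. The procedures were tested on simulated data with the same spread for every gene and changes placed only in better expressed genes. That test gives no measure of recovery for the 7 genes, most of which are low or more variable. Correlations used log2 CPM with a prior count of 2. Pathway genes named are the 2 per role with the smallest unadjusted p, and Ifnar1, Ifnar2, Ifit1, Ifitm1, Ifitm2, the interferon genes and the chemokines were named after values were seen. The 7 genes and all lists were chosen with earlier results of these data known. Promoters came from RefSeq (GRCr8) and were read with Python 3.11.15 and pandas 2.3.3, and plots were drawn with matplotlib 3.10.9. For 1 gene alone, exact two-sided permutation of 3 and 3 rats reaches at best p = 0.1.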

Additional observations from a re-analysis of the deposited data

How the results depend on the processing

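The counts of 0 among the 7 genes and of 0 among the pathway genes stayed at 0 in each comparison under the alternatives that could give a count, which were RLE size factors, total counts, a minimum of 10 counts in every rat (which removed Isg15), a minimum of 1 count, DESeq2, limma-trend, a model of the 6 rats in question, calls by adjusted p alone, and leaving out each of the rats. DESeq2 could give no count for the 7 genes in MS+EA relative to MS rats, where none had an adjusted p, and left out Isg15 in MS relative to Control and Isg15 and Bst2 in MS+EA relative to Control rats. The model of 6 rats left out Isg15 in MS relative to Control rats. No paired analysis was possible because any 2 groups share fewer than 2 animal numbers, and equal numbers belong to different rats. Of 332 log2 fold changes of the 7 genes under the alternatives, 19 changed sign, and none of these genes was past the threshold to begin with. With total counts Ifit2 was at 0.012 in MS+EA relative to MS rats. The remaining sign changes came from leaving out 1 rat. In MS relative to Control rats, the values with a rat left out were between -0.16 and 0.062 for Irf9, -0.034 and 1.06 for Isg15, and -0.38 and 0.043 for Bst2. In MS+EA relative to MS rats, they were between -0.22 and 0.38 for Irf7, -0.26 and 0.18 for Ifit2, -0.43 and 0.18 for Ifit3, and -0.39 and 0.062 for Bst2. In MS+EA relative to Control rats, they were between -0.56 and 0.034 for Irf7, -0.016 and 0.22 for Irf9, and -0.028 and 0.41 for Ifitm3. The smallest adjusted p of the 7 genes under an alternative was 0.0611, for Ifit3 in MS+EA relative to Control rats. Low counts limit Isg15 most, with 92 reads in all, and Bst2 with 236.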
